A study of Bos grunniens x Bos taurus and Bos grunniens with 12 samples.

Results

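The miR-2284 and miR-2285 family was described in milk exosomes of yak and Jeryak from the rows of the deposited miRNA table whose name begins with bta-miR-2284 or bta-miR-2285 and any letters and suffix after it. There were 87 such rows, 17 of miR-2284 and 70 of miR-2285, among 2263 entries, of which 583 carried a cattle (bta) name. The rule used names only and no measured value. Small RNA of milk exosomes was sequenced from Jeryak (the cross of yak with Jersey cattle, labelled Bos grunniens x Bos taurus) and from yak (Bos grunniens), each milked in June and in December, with 3 libraries in each of the 4 groups. The animals were lactating and 4 to 5 years old by the study's methods, no agent or genotype was added, and the labels do not say whether a library is 1 animal or a pool, so that p-values measure only the spread between these libraries. The values are norm values, the copy number of an entry multiplied by 1 correction factor per library.

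MicroRNAs are short RNAs that guide Argonaute proteins to messenger RNAs, and the bases at positions 2 to 8, the seed, contribute most to the choice of target. The miR-2284 and miR-2285 genes form a large family described in cattle and other ruminants, with many near-identical copies in the genome. Exosomes are small vesicles that cells release, and milk exosomes carry miRNAs of the mammary epithelium and of other cells.

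The sequences of the 12 rows that reached a norm value of 10 in 3 or more libraries are given first, because all tested differences below concern them. They are written as in the deposited table, with T for U, from 5′ to 3′, and capitals mark the seed. The arm opposite to miR-2285t (bta-mir-2285t-p5) and the rows bta-miR-2285i and PC-3p-1026_6980, which lie within 1 base of a tested row, are added for comparison.
bta-miR-2285t: aGAATCTGgatgaactttttgg
bta-miR-2284x_R+1: tGAAAAGTtcgttcgggttttt
bta-miR-2285bf_1ss20TC: aAAACACGaacaaacttttcg
bta-miR-2284ab: tAAAAGTTtggttgggttttt
bta-miR-2284j_L-1: aAAAGTTCgttcaggtttt
bta-miR-2285f: aAAACCTGaatgaactttttgg
bta-miR-2285k_R+1: aAAACCGGaatgaactttttgg
bta-miR-2285aa_R-1: aAAACTGGaacgaacttttggg
bta-miR-2285aw_R+1: aAAACCTGaacaaactttttgg
bta-miR-2285p: aAAAACTTgagtgaacttttgg
bta-miR-2285bk: aAAAGTTCgtttgagtttttct
bta-miR-2285br: aAAACCTGaatgaactttctgt
bta-mir-2285t-p5: aAAAGTTCgttcaggtttttct
bta-miR-2285i: aAAACCGGaacgaactttttgg
PC-3p-1026_6980: aAAACACGaacaaacttttcgg

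Most family sequences fall into 2 patterns. The motif AAAGTT was found in 28 of the 79 distinct sequences (35.4%), starting at base 2 to 4 from the 5′ end, and in none of 379 sequences of other bta-miR and bta-let rows. The reverse complement of that motif, AACTTT, was found in 41 sequences (51.9%) with its last base 2 to 6 bases from the 3′ end, against 1.32% of the other sequences. No sequence held both motifs and 10 held neither, and the motifs were searched on the strand of the mature sequence only. Family sequences were poor in G and C, with a median GC content of 35% against 47.8%, and 77.2% of them began with A against 23.5%. In the pair of arms of the miR-2285t precursor the longest stretch of complementary bases was AAAAGTTC (8 bases), which holds the motif of the first pattern.

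The 79 sequences carried 37 different seeds, 24 of which belonged to a single sequence. The most frequent seed was AAAGTTC, with 11 sequences in 13 rows that include miR-2284j_L-1 and miR-2285bk, and it is also the seed of bta-mir-2285t-p5. AAACCTG followed with 10 sequences, among them miR-2285f, miR-2285aw_R+1 and miR-2285br, then AAAAGTT with 7, led by miR-2284ab, and AAACCGG with 4, led by miR-2285k_R+1. The 2 most abundant rows stood outside these groups, since miR-2285t alone had the seed GAATCTG and miR-2284x_R+1 shared GAAAAGT with 2 other sequences. The sequence of miR-2284x_R+1 contains that of miR-2284y_R-1 with 2 more bases at its 5′ end, so that their seeds differ.

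Several rows cannot be read as separate molecules. Of the 87 rows, 15 shared 7 sequences and always had the same values, for example miR-2284aa_L-1R+2_1ss10TC, miR-2284v_R+2_1ss17GT and miR-2285au_1ss13CT, which are 1 sequence under 3 names. Of all rows, 19 had the exact miRBase name and 68 had a changed end or base (R+1 means 1 base more at the 3′ end, L-1 means 1 base fewer at the 5′ end, 1ss means 1 substitution). A substitution was named in 30 rows, 34.5% of the family against 7.87% of the other bta-miR and bta-let rows. Reads were matched with 1 mismatch allowed, and only 25 to 54.8% of the family values above 0 in a library were whole numbers of copies. Whether reads with several matches were shared out between rows was not tested. The value of a row with near-identical neighbours is uncertain.

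Lists of marker miRNAs were read in the libraries, and depth differed between groups. The 7 milk markers (miR-148a, miR-30a-5p, miR-200c, miR-200a, miR-26a, miR-21-5p and let-7a-5p) were present in every library, with summed norm values of 212615 to 461668. The highest sum, in December Jeryak 2, held 267446 of miR-21-5p. All libraries are of milk exosomes, so the presence of these markers does not test the origin. Copies summed over all entries were 247528 to 840850 in the 9 other libraries and 2281113 to 6168478 in the December Jeryak libraries, as recovered from the steps between values, and the worth of 1 copy was 0.127 to 0.269 in the latter and up to 3.30 elsewhere. The white blood cell markers (6 of 7 listed, since miR-223 was not analysed here) stood apart in December Jeryak 2, with a summed norm value of 10379 against 875 and 889.5 in the other December Jeryak, 510 to 740 in the December yak and 88.8 to 349 in the June libraries, where miR-142-3p and miR-150 were at 0. Red blood cell markers summed to 781 in June yak 3 and to 15.4 to 337 in the other libraries. The sources used here do not say whether June and December libraries were made and sequenced together, so that month and any batch cannot be told apart.

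Of the 87 rows, 12 passed the minimum of 10 in 3 or more libraries and were tested with the rest of the table, while 47 never reached 10 and 28 reached it in 1 or 2 libraries. Rows just inside the minimum were miR-2285bk and miR-2285br, each at 10 or more in 3 libraries. Among the 9 rows just outside, at 10 or more in 2 libraries, were miR-2285i, with the highest norm value of any untested row (42.9 in June yak 3, and 31.6 in June Jeryak 2), and the 3 rows of the shared sequence named above (17.5 in June Jeryak 2 and 12.3 in December Jeryak 2). Values above 0 in all 12 libraries were found for 9 rows, and 22 rows had such a value in 1 library alone.

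Family members were found in every library, and most of them at few copies. The number of rows above 0 was 28, 41 and 31 in the June Jeryak libraries and 19, 28 and 30 in the June yak libraries. In December it was 52, 74 and 50 in Jeryak and 23, 13 and 13 in yak. The December Jeryak libraries, which hold the most copies, were the highest and did not overlap the other groups. December Jeryak was also highest for the other bta-miR and bta-let rows, with 73.0 to 91.3% of the 381 rows above 0 against 45.4 to 60.9% in the other libraries. The remaining groups were ordered differently, since December yak was lowest for the family with a mean of 18.8%, below June yak (29.5%) and June Jeryak (38.3%), whereas the other rows had means of 55.5, 49.2 and 53.7% in those groups.

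With a minimum of 3.30, the largest value that 1 copy stood for in any library, the counts came closer together. They were 16, 33 and 24 in June Jeryak, 17, 21 and 27 in June yak, 21, 29 and 18 in December Jeryak and 14, 10 and 8 in December yak. The December Jeryak libraries then overlapped those of June, and the December yak libraries were all below those of December Jeryak. This minimum does not make depth equal. One copy was worth 0.127 to 0.269 in December Jeryak and 0.730 to 1.86 in December yak. A value near 3.30 thus stands for few copies in the shallow libraries and can be missed there. In percent of rows, December yak was at 9.20 to 16.1% for the family, while the other bta-miR and bta-let rows of the same libraries were at 52.8 to 57.7%, and those of June yak at 45.4 to 53.0%. In December, 17 family rows reached this minimum in Jeryak only and 3 in yak only, against 17 and 12 in June. Rows of the same sequence count separately here. The same count was not made over all entries, so these numbers cannot be read as particular to the family.

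**Figure D1:**
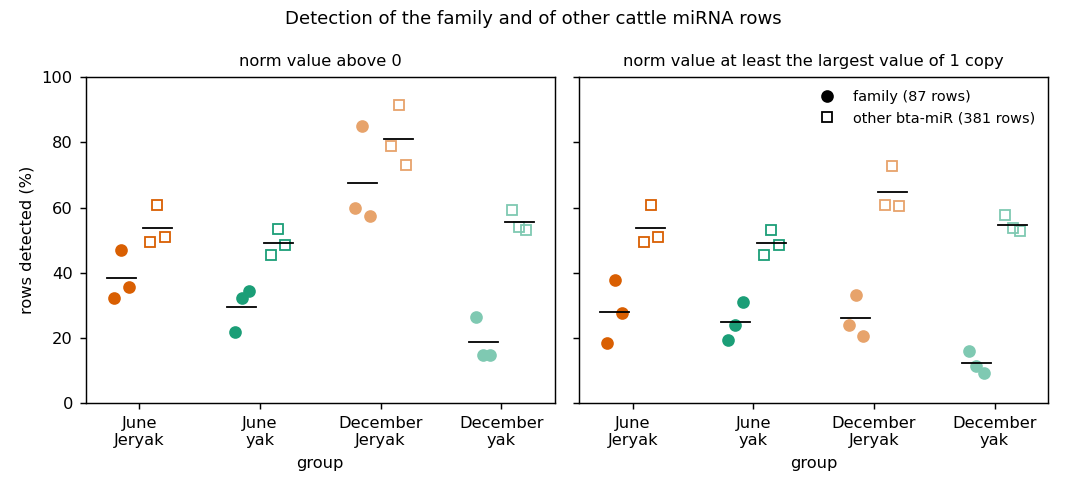
Percent of rows detected (vertical axis) in each group (horizontal axis), for the 87 family rows (filled circles) and 381 other bta-miR and bta-let rows (open squares), above 0 (left) and at the largest value of 1 copy, 3.30, or more (right). Each symbol is 1 library and each line the mean of 3 libraries, and the December yak libraries are lowest for the family in the right panel, at 9.20 to 16.1%.

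The summed norm value of the family, with each sequence counted once, was 4578, 11869 and 10970.4 in June Jeryak and 3904, 4861 and 12738.5 in June yak. In December it was 4185, 3929.9 and 3959 in Jeryak and 2888, 2778 and 2704 in yak. The groups of December did not overlap, both June groups lay above the December group of the same breed, and the June groups overlapped and varied most, with a mean of 9139 ± 3976 (SD, n = 3) in Jeryak and 7168 ± 4848 (SD, n = 3) in yak. The December means were 4025 ± 139.7 (SD, n = 3) in Jeryak and 2790.2 ± 92.5 (SD, n = 3) in yak. Across the libraries the family made up 0.459 to 1.78% of all norm values. A sum over members was given no test.

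**Figure D2:**
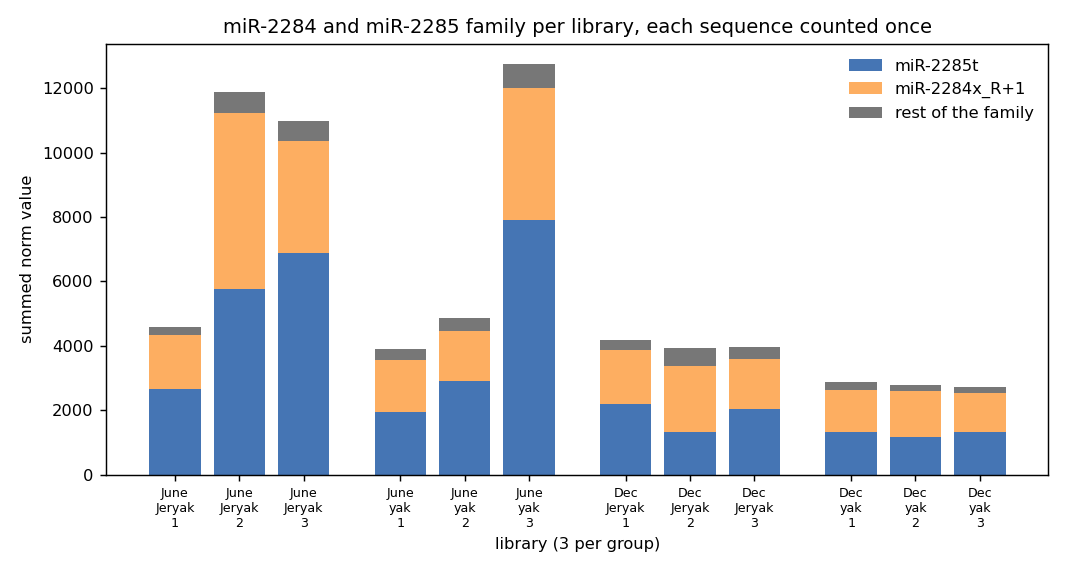
Summed norm value of the family (vertical axis) in each of the 12 libraries (horizontal axis), split into miR-2285t, miR-2284x_R+1 and all other members. The 2 named rows fill 86.1 to 94.6% of every bar, and the bars of June Jeryak 2, June Jeryak 3 and June yak 3 reach 10970.4 or more.

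miR-2285t and miR-2284x_R+1 together made up 86.1 to 94.6% of the family sum. miR-2285t was at norm values of 2672, 5775 and 6894 in June Jeryak and 1957, 2915 and 7899.6 in June yak. In December it was at 2178, 1332 and 2021 in Jeryak and 1310.4, 1152 and 1306 in yak. By norm value, every June library of a breed (yak or Jeryak) lay above every December library of that breed. Among all entries of a library miR-2285t ranked between 17 (June yak 3) and 62 (December Jeryak 2). By rank the months overlapped in yak, with 56 in June yak 1 and 56, 60 and 55 in December yak. June Jeryak 1 ranked 38, next to 39, 62 and 41 in December Jeryak.

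miR-2285t was higher in June than in December in both breeds. The log2 fold change was 1.39 ± 0.49 (SE) in Jeryak (limma adjusted p = 0.036) and 1.504 ± 0.49 (SE) in yak (limma adjusted p = 0.030). Both calls were near the threshold. In Jeryak the call was lost without June Jeryak 2 (1.25, limma adjusted p = 0.093) or 3 (1.12, 0.13), without December Jeryak 1 (1.53, 0.051), 2 (1.18, 0.12) or 3 (1.48, 0.067), and without June yak 2 (1.39, 0.053), which enters through the shared spread. In yak it was lost without June yak 3 (0.93, limma adjusted p = 0.11) and without December yak 1 (1.54, 0.065), 2 (1.44, 0.078) or 3 (1.53, 0.064). With equal library totals the values were 1.35 in Jeryak and 1.25 in yak (limma adjusted p = 0.052 and 0.074). Both calls were also lost with no minimum (limma adjusted p = 0.11 and 0.097) and without a trend of the variance (0.090 and 0.078). The call in yak was lost with only the 2 groups in the fit (limma adjusted p = 0.11). The June against December difference averaged over the breeds, added after the data were seen, was 1.45 ± 0.34 (SE; limma adjusted p = 0.0031), and adjusted p was 0.0011 to 0.014 over the 20 alternatives run for it. Between Jeryak and yak the log2 fold change of miR-2285t was 0.41 in June (95% interval -0.64 to 1.47) and 0.52 in December (-0.53 to 1.58), neither of which passed (limma adjusted p = 0.65 and 0.80).

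The opposite arm of the same precursor, bta-mir-2285t-p5, was lower than miR-2285t in every library. Its norm values were 731, 1476 and 1029 in June Jeryak and 545, 602 and 755 in June yak, and 628, 491 and 770.2 in December Jeryak and 460.4, 344 and 442 in December yak. Without a test of the difference between the arms, the ratio of miR-2285t to the arm was 2.62 to 10.5, lowest in December Jeryak 3 and highest in June yak 3. Its averaged June against December log2 fold change was 0.67 ± 0.24 (SE; limma adjusted p = 0.031), and it was not called in either breed alone (limma adjusted p = 0.10 in Jeryak and 0.19 in yak).

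miR-2284x_R+1 was at norm values of 1652, 5448 and 3477 in June Jeryak and 1608, 1557 and 4108 in June yak. In December it was at 1705, 2051 and 1583 in Jeryak and 1317, 1449 and 1228 in yak. The December groups did not overlap, the June libraries of yak lay above those of December, and those of Jeryak overlapped December. The separation in yak is one of deposited norm values, and June yak 1 had the largest sum of all norm values (816871). Among all entries of a library, miR-2284x_R+1 ranked 64 in June yak 1 and 55 to 58 in December yak. No comparison passed for it, with log2 fold changes of 0.83 ± 0.45 (SE) in Jeryak and 0.71 ± 0.45 (SE) in yak for June against December (limma adjusted p = 0.15 and 0.24). In Jeryak the difference passed in 1 of 23 alternatives, without June Jeryak 1 (1.298, limma adjusted p = 0.025). Averaged over the breeds the June against December value was 0.77 ± 0.32 (SE; limma adjusted p = 0.054), which passed in 4 of 20 alternatives. The ratio of miR-2285t to miR-2284x_R+1 ran from 0.650 in December Jeryak 2 to 1.98 in June Jeryak 3.

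**Figure D3:**
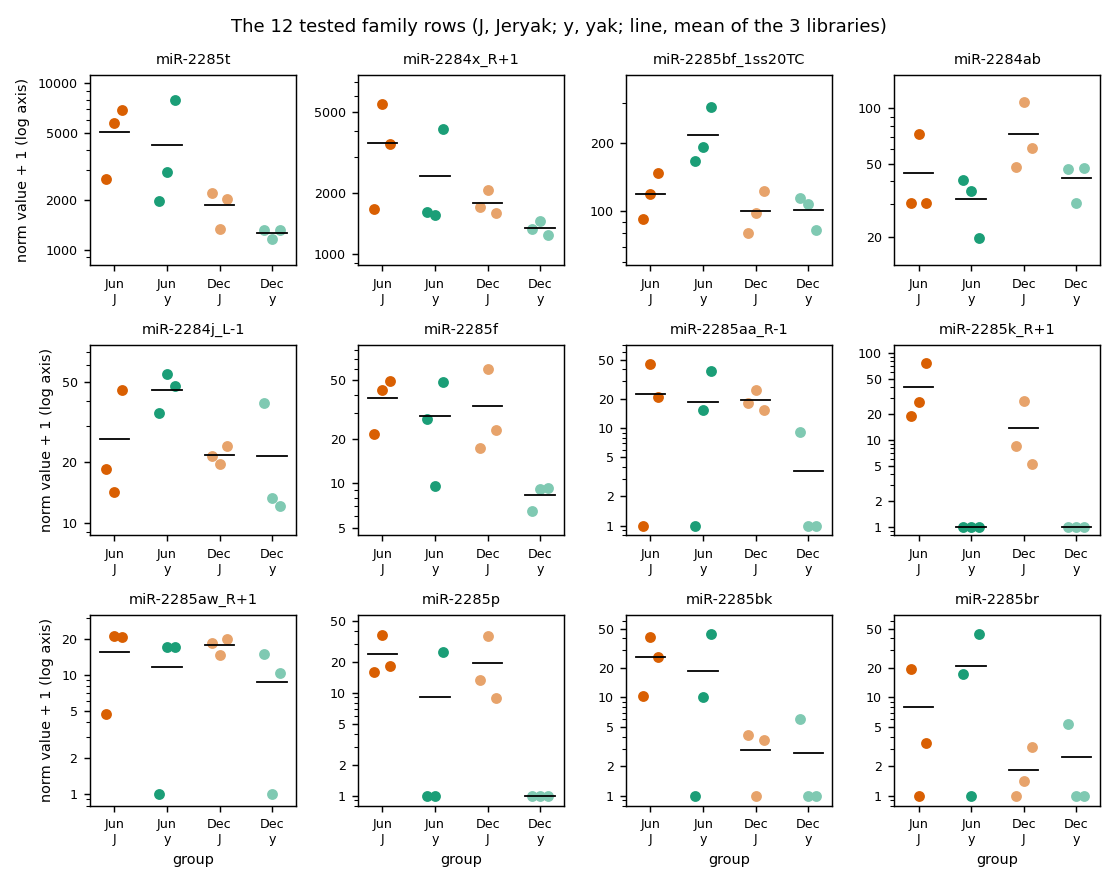
Norm value plus 1 (vertical log axes, each with its own range) of the 12 tested rows in the 4 groups (horizontal axes). Each point is 1 library and each line the mean of 3 libraries. miR-2285k_R+1 lies at 1, a norm value of 0, in all 6 yak libraries and above it in all 6 Jeryak libraries.

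Among the tested rows, miR-2285k_R+1 alone passed in the comparisons of Jeryak with yak within a month. Its norm values were 17.6, 26.2 and 75.7 in June Jeryak and 7.40, 26.6 and 4.33 in December Jeryak, and it was at 0 in all 6 yak libraries. In copies the Jeryak values stand for 9.50, 12.4 and 30.7 in June and for 41.7, 209 and 16.1 in December. The groups did not overlap in either month. Against a floor of 3 copies in each yak library, a mean of 7.003 in June and 4.23 in December, the Jeryak mean of 39.8 ± 31.4 (SD, n = 3) in June was at least 5.68-fold higher, and the December mean of 12.8 ± 12.05 (SD, n = 3) at least 3.02-fold higher. The December mean was raised by December Jeryak 2 (26.6). December Jeryak 3, at 4.33, lay below the floors of December yak 2 (4.90) and 3 (5.59), so the bound does not hold for each library. Floors cover counting error only. The row reached 10 in 4 libraries, all Jeryak, so it passed the minimum only through the group where it is high.

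miR-2285k_R+1 passed the test in June (P1, log2 fold change 5.08 ± 0.88 (SE), limma adjusted p = 0.0034) and in December (P3, 3.42 ± 0.88 (SE), limma adjusted p = 0.037). These fitted values depend on the 1 added to every norm value. Where values below 9.90 (3 copies of the shallowest library) were raised to it, the log2 fold changes were 1.63 and 0.45 (limma adjusted p = 0.075 and 0.98). The June call was also lost with only the 2 groups in the fit (limma adjusted p = 0.064) and the December call with a pseudocount of 10 (1.06, 0.33) or with no minimum (3.42, 0.084). Without December Jeryak 2, the library with the most white blood cell markers, the December value was 2.74 (limma adjusted p = 0.20), and the call was also lost without December Jeryak 1 (3.60, limma adjusted p = 0.11) or any 1 December yak library (3.42, 0.12 to 0.18). The part of those markers in the December difference was not tested, and in June, where the call was made as well, their sum was 88.8 to 309 in Jeryak and 189 to 349 in yak. Averaged over the months the log2 fold change was 4.25 ± 0.62 (SE; limma adjusted p = 0.0021). This call was lost in 1 of 20 alternatives, with values raised to 9.90 (1.04, limma adjusted p = 0.11). In all these fits the yak libraries, each at 0, add no spread, so SE and adjusted p may be too small.

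Of the rows nearest to miR-2285k_R+1 in sequence, some were at 0 in all 6 yak libraries as well and others were not. miR-2285k, the same sequence without its last base, was at 0, 0 and 38.7 in June Jeryak and 1.52, 7.18 and 0.620 in December Jeryak, and at 0 in all yak libraries. miR-2285ad_1ss8AG, 1 base away, was also at 0 in all yak libraries, with at most 4.62 in Jeryak. miR-2285cj_1ss6TC differs from miR-2285k_R+1 in the last base only, so it contains the sequence of miR-2285k. It was at 3.57 and 4.47 in June yak 2 and 3, and at 0.638, 2.74 and 1.70 in December Jeryak. bta-mir-2285cq-p3, 1 base away in the seed, was at 9.68 and 4.47 in June yak 2 and 3, and at 7.61 and 3.10 in December Jeryak 2 and 3. miR-2285f differs from miR-2285k_R+1 by 1 base in the seed (T7G, with the base of miR-2285f first and positions counted from the 5′ end). It was at 20.5, 42.2 and 48.1 in June Jeryak, 26.4, 8.66 and 47.6 in June yak, 16.3, 59.0 and 21.9 in December Jeryak and 5.47, 8.17 and 8.39 in December yak. It was thus above 0 in all libraries, overlapped between the breeds in June and was higher in each Jeryak than in each yak library in December, a difference that did not pass (log2 fold change 1.80 ± 0.78 (SE), limma adjusted p = 0.26). miR-2285k_R+1 was at 19.8 to 157% of miR-2285f in the Jeryak libraries.

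The seed AAACCGG itself was present in yak. miR-2285i, which has this seed, was at 42.9 in June yak 3, 31.6 in June Jeryak 2, 1.60 and 1.27 in December Jeryak 1 and 2 and at 0 in the other 8 libraries. Over the 4 sequences with the seed, the norm values summed to 0, 3.57 and 47.4 in June yak and to 0 in the 3 December yak libraries, against 17.6, 57.7 and 114 in June Jeryak and 11.2, 37.8 and 6.65 in December Jeryak. June Jeryak and June yak thus overlapped in this sum.

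**Figure D4:**
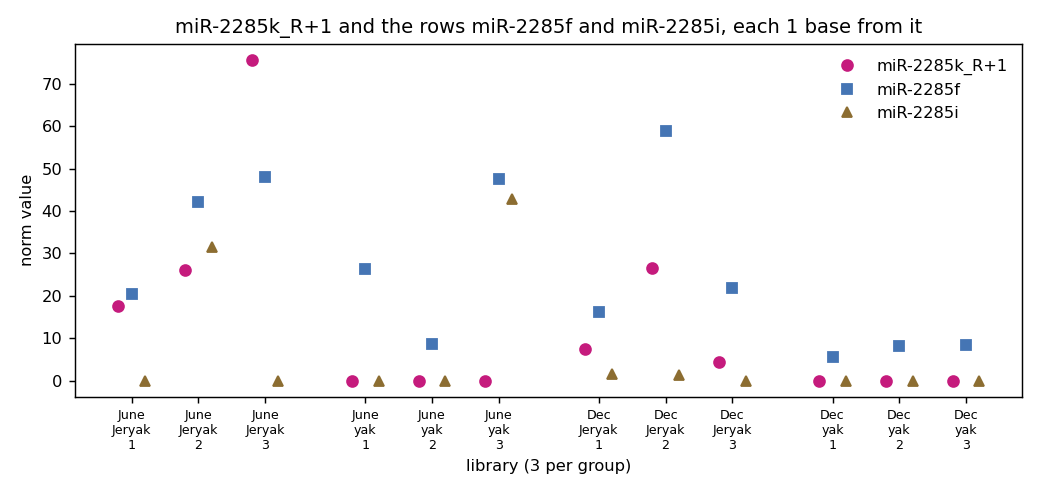
Norm value (vertical axis) of miR-2285k_R+1 and of miR-2285f and miR-2285i, each 1 base away from it, in the 12 libraries (horizontal axis). miR-2285k_R+1 is at 0 in all 6 yak libraries, while miR-2285f is at 5.47 to 47.6 there and miR-2285i reaches 42.9 in June yak 3.

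Of all 2263 entries, 3 were above 0 in all 6 Jeryak libraries and at 0 in all 6 yak libraries, and 0 showed the reverse. They were bta-miR-181c_R-2 and 2 family rows, miR-2285k_R+1 and miR-2285cc_L-1R-1, named here after their values were seen. miR-2285cc_L-1R-1 was at 1.39, 11.8 and 14.8 in June Jeryak and 4.72, 1.82 and 4.35 in December Jeryak. Of these 6 values, 4 lie under 9.90, the worth of 3 copies in the shallowest library, and values of that size would not be detectable in every yak library.

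miR-2285p was the other row with a difference between the breeds. It was at 14.8, 35.8 and 17.3 in June Jeryak and at 0, 0 and 24.1 in June yak. In December it was at 12.4, 34.5 and 7.95 in Jeryak and at 0 in all 3 yak libraries. The groups overlapped in June through June yak 3 and did not overlap in December. It did not pass in June (2.91 ± 1.19 (SE), limma adjusted p = 0.19) or December (4.02 ± 1.19 (SE), limma adjusted p = 0.066), and passed in the average of both months (3.46 ± 0.84 (SE), limma adjusted p = 0.027). The row reached the minimum through the Jeryak libraries, where it is high. The averaged call was lost in 11 of 20 alternatives. With values raised to 9.90 it was 0.64 (limma adjusted p = 0.34), with a pseudocount of 10 it was 1.22 (0.076) and with no minimum 3.46 (0.079). The other 8 were leaving out June Jeryak 3 (3.53, limma adjusted p = 0.055), June yak 2 (3.08, 0.063), December Jeryak 1 (3.53, 0.069), 2 (3.18, 0.090) or 3 (3.68, 0.050), and any 1 December yak library (3.46, 0.073 to 0.077). Without June yak 3 the row passed in both months, with 4.46 in June (limma adjusted p = 0.0098) and 4.02 in December (0.0091).

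miR-2285bk was the other row with a difference between the months. It was at 9.24, 40.001 and 24.7 in June Jeryak and 0, 9.17 and 42.9 in June yak. In December it was at 3.19, 0 and 2.69 in Jeryak and at 5.11, 0 and 0 in yak. The June and December libraries of Jeryak did not overlap and those of yak did. The row reached 10 in 3 libraries, all of June, so it passed the minimum only through the month where it is high, and it is not tested at all without any 1 of them. It passed in the average over the breeds (2.61 ± 0.94 (SE), limma adjusted p = 0.031) and not in Jeryak (3.15, limma adjusted p = 0.076) or yak (2.06, limma adjusted p = 0.25) alone, and the averaged call was lost in 7 of 17 alternatives. With values raised to 9.90 it was 0.86 (limma adjusted p = 0.073), with a pseudocount of 0.1 it was 3.81 (0.073) and with no minimum 2.61 (0.085). It was also lost without December Jeryak 2 (2.28, limma adjusted p = 0.082), June yak 2 (2.50, 0.056) or either of December yak 2 and 3 (2.39, 0.072 and 0.071).

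**Figure D5:**
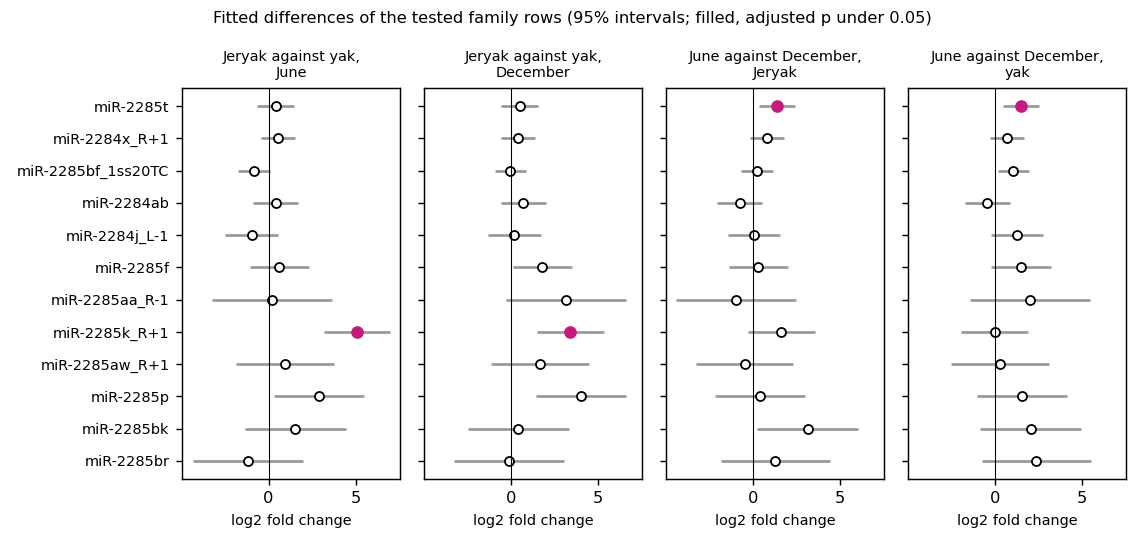
Log2 fold change (horizontal axes) of the 12 tested rows (vertical axis) in the 4 comparisons, with 95% intervals from limma. Filled points passed at adjusted p under 0.05, and these are miR-2285k_R+1 in both comparisons of Jeryak with yak (5.08 and 3.42) and miR-2285t in both comparisons of June with December (1.39 and 1.504).

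The other 7 tested rows passed in no comparison. miR-2285bf_1ss20TC was at 91.5, 118 and 147 in June Jeryak and 165, 192 and 287 in June yak, and at 79.4, 97.1 and 121 in December Jeryak and 113, 107 and 82.0 in December yak. Each June yak library was above each June Jeryak and each December yak library, and neither difference passed (log2 fold change -0.83 ± 0.41 (SE), limma adjusted p = 0.28, in P1, and 1.06 ± 0.41 (SE), limma adjusted p = 0.064, in P4). This row is contained in the predicted candidate PC-3p-1026_6980, which has 1 base more at the 3′ end and was higher in 12 of 12 libraries, at 1.38 to 6.61 times its norm value.

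miR-2284ab was at 29.6 to 71.6 in June Jeryak, 18.8 to 39.6 in June yak, 46.8 to 107 in December Jeryak and 29.4 to 46.6 in December yak. It did not overlap between the breeds in December, as the lowest Jeryak library lay just above the highest yak library, and its log2 fold change of 0.73 ± 0.59 (SE) did not pass (limma adjusted p = 0.69). miR-2284j_L-1, which consists of the first 19 bases of bta-mir-2285t-p5, was at 13.2 to 44.4, 33.8 to 53.3, 18.5 to 22.9 and 11.2 to 38.1 in the same order of groups, and its groups overlapped in every comparison.

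Of the rest, miR-2285aa_R-1 was at 0 in June Jeryak 1, June yak 1 and December yak 2 and 3, and was at 14.3 to 23.5 in December Jeryak against 0 to 8.03 in December yak. That difference did not pass either (log2 fold change 3.18 ± 1.59 (SE), limma adjusted p = 0.35). miR-2285aw_R+1 was at up to 20.0005 and miR-2285br at up to 42.9, with 2 and 5 libraries at 0, and both overlapped in all 4 comparisons.

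Counted over the 12 tested rows, few passed in any comparison and none was lower in the group named first. In P1 (Jeryak against yak in June) 1 row was higher, where 2.58% of all 620 tested entries were, and in P3 (Jeryak against yak in December) 1 row, where 1.94% were. In P2 (June against December in Jeryak) 1 row was higher, where 28.9% of all tested entries were, and in P4 (June against December in yak) 1 row, where 22.6% were. In the average of P1 and P3 there were 2 higher rows (background 3.06%), and in the average of P2 and P4 also 2 (background 38.1%). The counts for Jeryak against yak within a month rest on miR-2285k_R+1 alone, which passed the minimum only through Jeryak libraries. Those for June against December were not above the share over all tested entries. The 251 tested entries with a cattle name, the family included, ran more often the other way. Of these, 14 were higher and 50 lower in P2, 18 and 36 in P4, and 33 and 79 in the average of P2 and P4. Their median log2 fold changes were -0.56, -0.20 and -0.55, beside 0.38, 1.39 and 0.80 for the 12 rows. The difference between P1 and P3 passed for 0 of 12 rows by limma, where 5.48% of all tested entries passed. At an unadjusted p under 0.05 it was 0 of 12 rows and 114 of 620 entries. The median log2 fold change of the 12 rows was 0.48, 0.38, 0.63 and 1.39 in P1 to P4, beside 0.35, 0.61, 0.00 and 0.59 over all tested entries, and with equal library totals the values in P4 were 1.14 for the 12 rows and 0.35 for all entries. P1 and P2 share the June Jeryak libraries, P2 and P3 the December Jeryak, P3 and P4 the December yak and P1 and P4 the June yak libraries.

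The direction of the separate libraries gave more rows in P3 than the test did. In P3, 7 of the 12 rows were higher in every Jeryak than in every yak library, beside 13.5% of all tested entries. Among the 7 were miR-2285k_R+1 and miR-2285p, which reached the minimum through the Jeryak libraries, where they are high. Counted in the same way, 1 row was higher and 1 lower in P1 (7.90 and 7.42% of all entries). There were 2 higher rows in P2 (30.97%) and 4 in P4 (25.5%). These counts use the deposited norm values and were not repeated with equal library totals. Among all entries of a library, miR-2285t ranked 62 in December Jeryak 2 and 55 to 60 in December yak, although its norm values did not overlap in P3. In December Jeryak 2, the library with the most white blood cell markers and the most copies, 6 of the 12 rows had the highest value of their group. December Jeryak 1 and 3 had 2 and 4 such rows. The number was also 6 in June Jeryak 2 and was 9 in June yak 3. The part of the markers or of the copies in the counts without overlap was not tested. Fewer exosomes with a miRNA and fewer copies per exosome cannot be told apart in these libraries.

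By the criteria of the study (unadjusted p under 0.05 and a change of 1 or more on the log2 scale of mean norm values, over rows above 0 in either group) other rows were called, all but 1 of them among the rows too low for the test above. In P1, 1 of 60 family rows was higher and 0 were lower, beside 0.809 and 0.462% of all entries. In P2, 1 of 84 was higher and 6 lower (2.5 and 3.38% of all entries), in P3, 7 of 79 were higher and 0 lower (4.63 and 1.93%), and in P4, 0 of 43 were called (1.89 and 3.7%). These criteria called neither miR-2285k_R+1 nor miR-2285t in any comparison.

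The rows called by those criteria, named after their values were seen, had low norm values in the deep December Jeryak libraries. miR-2285de was at 10.0006, 4.89 and 8.62 in December Jeryak, miR-2285bb_R-2 was called as well, and both were at 0 in all other libraries. miR-2285bt was at 2.84, 3.43 and 3.50 and miR-2285cl at 3.19, 1.65 and 1.89 in December Jeryak, and both were at 0 in June Jeryak and December yak but at up to 19.8 and 16.5 in June yak. These 4 rows account for 4 of the 7 rows higher in P3 and 4 of the 6 lower in P2. The remaining calls of P3 were miR-2285aa_R-1 and the 2 names of 1 sequence, miR-2284y_R-1 and miR-2285av. Since 3 copies stand for norm values of 2.19 to 9.90 outside December Jeryak, most of these values would not be detectable in every library of the other groups. miR-2285ad_1ss8AG, higher in P1 and P2, was at 4.62, 3.16 and 2.88 in June Jeryak, at 0 in all yak libraries and at 0 to 1.00 in December Jeryak, also within the range of 3 copies.

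Rows related to the family were tested in the same fit. Of the 62 rows of precursor arms named bta-mir-2284 or bta-mir-2285, 6 were tested, 3 of them with the same values, and none passed in P1 to P4, while bta-mir-2285t-p5 passed in the average of June against December, as given above. Of 35 other bta-miR rows with numbers close to those of the family, 5 were tested and none passed in P1 to P4. miR-2387_R+1 of these passed in the same average (2.29 ± 0.78 (SE), limma adjusted p = 0.023). The 2 rows of other species named miR-2284 or miR-2285 were below the minimum.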

How the data were processed

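Norm values of miRNA entries in milk exosomes of yak and Jeryak were analysed. The deposited signal values were made by the authors with ACGT101-miR. Low-complexity reads and reads of other RNA families were removed, those of 18 to 26 nt were compared with miRBase 22.0, allowing 1 mismatch, and copy numbers were multiplied by 1 factor per library. No source used here gives the genome build. Summed norm values were 588715 to 816871 per library. The worth of 1 copy was recovered from the steps between values of predicted candidates, but only 79.1% of all values above 0 were whole copies within 0.02 copies, so no count test was used. One line of the table is not reported here.

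The 620 entries that reached 10 in 3 or more of 12 libraries were fitted together with limma 3.58.1 in R 4.3.3 on log2(norm value + 1), with a trend of the variance and 1 mean per group, and Benjamini-Hochberg adjustment was made over all of them at 0.05. Positive log2 fold changes are higher in the group named first and understate changes of low rows. The fit was tested on simulated data with normal noise and the same spread of a row in all groups. That simulation had no detection floor and no difference in depth, so it does not check rows that are undetected in whole groups. The averages over months and over breeds, and the floor of 3 copies, were added after the data were seen. The members, marker lists and tests were chosen with earlier results of these data known. Named rows are those at 10 or more in 3 libraries, those above 0 in all libraries, those that passed, those that share a sequence with them, and a few named after their values were seen. Libraries were not paired by number. Software was Python 3.11.15, matplotlib 3.10.9, numpy 2.4.6 and pandas 2.3.3.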

Additional observations from a re-analysis of the deposited data

How the results depend on the processing

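The family counts rest on few rows, and 1 row more or less moves them. With rows of at least 1 in at least 3 libraries, 45 family rows were tested and 3, 5, 3 and 3 passed in P1 to P4, 3 in the interaction, 6 in the average over months and 7 in the average over breeds. With only the 2 groups compared in the fit the counts were 0, 2, 2 and 0 in P1 to P4. They were 0 in P2 and P4 with equal library totals or without a trend of the variance, 0 in P3 and P4 with no minimum, and 0 in P3 with a pseudocount of 10. With a pseudocount of 0.1 they were 2 in P3 and P4. Values raised to 3 copies of the shallowest library gave 0 in P1, P3 and the average over months and 1 in the average over breeds. The averages gave 1 over months with a pseudocount of 10 or no minimum and 1 over breeds with a pseudocount of 0.1. The criteria of the study gave 7 in P2, 7 in P3 and 0 in P4. Leaving out 1 library gave 1 to 2 in P1, 0 to 2 in P2 and P3, 0 to 3 in P4, 0 in the interaction, 1 to 2 over months and 1 to 4 over breeds. The cause of these changes was not tested.

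Same-numbered libraries had correlations of -0.06 to 0.14, and the own number was the closest for 2, 1, 0 and 1 of 3 libraries in P1 to P4, so the numbers were not taken to pair them. The replicate block gave 0 rows in P3, where miR-2285k_R+1 had 3.42 (limma adjusted p = 0.082), and changed no other count. The log2 fold change of miR-2285t in P1 was -0.018 to 0.99 when 1 library was left out, negative only without June yak 1, and no other named log2 fold change turned its sign in the alternatives run. Of 521 other values of named rows under an alternative, 49 were called in the main fit only and 14 in the alternative only.

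Leaving out 1 library gave mean rows above 0 of 29.5 to 36 in June Jeryak, 23.5 to 29 in June yak, 51 to 63 in December Jeryak and 13 to 18 in December yak, and mean sums of the whole family of 7774 to 11420, 4382 to 8799.7, 3945 to 4072 and 2741 to 2833 in the same order. Mean rows detected were 24.3 in June Jeryak and 22.7 in December Jeryak at a minimum of 3.30, and 16.7, 11.3, 11.7 and 5.67 in June Jeryak, June yak, December Jeryak and December yak at 10. Without miR-2285t the mean sums were 4025 in June Jeryak, 2181 in December Jeryak and 1534 in December yak, and equal totals gave 3122 in December yak. Values under 9.90 cannot be compared between December Jeryak and the shallower libraries, and month cannot be told apart from any batch.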
